A study of Mus musculus with 6 samples.

Results

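The genes described here are p53, encoded by Trp53 in the mouse, and 31 genes listed with it as partners or targets. They were taken by name: every gene probe of the array whose gene name was 1 of the 32 listed genes was used. All 32 genes had at least 1 probe, 44 probes in all, out of 39429 gene probes for 30222 gene names, and 10 of the genes had more than 1. The arrays measured the RNA of cultured mouse embryonic stem (ES) cells, pluripotent cells of the early embryo, with 3 wild type arrays and 3 Zscan5b knockout arrays. Both groups were kept undifferentiated by leukemia inhibitory factor and by a feeder layer of mouse embryonic fibroblasts whose division had been stopped with mitomycin C, a drug that crosslinks DNA. The feeder cells were part of the cultures of both genotypes. Zscan5b belongs to the SCAN domain family of zinc finger proteins. The labels call the samples of each genotype biological replicates. They do not say how the deletion was made, which part of the gene it removes, whether the knockout samples are separate clones, or from which strain or age of embryo the cells came. The p-values therefore measure only the spread between these 6 cultures.

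p53 is a transcription factor that is held at a low level by the ubiquitin ligase Mdm2 and its relative Mdm4. DNA damage and other stresses release it, and it then binds DNA as a tetramer and switches on genes for cell cycle arrest, repair and cell death. Its targets include Mdm2, which closes a feedback loop, and Cdkn1a, which encodes the cyclin-dependent kinase inhibitor p21. ES cells are known for a short first gap phase of the cell cycle and little p21. Fibroblasts stopped with mitomycin C are cells with damaged DNA, in which p53 targets are known to be induced.

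Of the 39429 gene probes, 64.3% to 70.3% were well above background on each array, and 75th percentile signals ran from 852 to 1028. Each genotype occupied its own slide and its own scan, so slide, scan and genotype cannot be told apart in any comparison that follows. The SD of the log2 difference for a pair of arrays from different genotypes was 0.49 to 0.70, compared with 0.51 to 0.64 among wild type arrays and 0.33 to 0.40 among knockout arrays. The Zscan5b probe read -3.66, -4.03 and -3.12 on the wild type arrays and -4.47, -5.17 and -5.13 on the knockout arrays (log2 fold change -1.32, limma adjusted p 0.107). A probe outside the deleted part would check nothing about the genotype. All 10 ES cell markers were well above background on all 6 arrays, and so were 15 of the 16 feeder fibroblast markers. The probe of Col5a2 did not reach the filter.

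The DNA sequence that p53 recognises is a pair of copies of a 10-base consensus, and a copy of that consensus was searched for in the promoter windows of RefSeq, from 250 bases before to 50 bases after each listed gene start on build GRCm38.p6. The consensus reads the same on both strands, so each match covers both. Windows were given for 26 of the 32 genes, and 6 had none. At least 1 copy lay in 13 of the 33 member windows (39.4%), which belong to 12 genes, against 8.36% of all 32851 windows. Of these windows, 24 held a pair of copies separated by at most 13 bases, and 1 of the 24 was the upstream start of Cdkn1a. Sequences are shown for Cdkn1a, 1 of whose 3 probes was the member probe that passed the test between genotypes, for p53 itself and for 5 members with a match before a gene start, with the consensus copies in capitals, written 5′ to 3′ on the strand of the gene:
Cdkn1a (chr17:29090891-29090952, plus strand, 62 bases, first copy 73 and last copy 51 bases before the start): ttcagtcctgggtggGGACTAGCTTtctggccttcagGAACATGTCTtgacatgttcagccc
Trp53 (chr11:69580269-69580308, plus strand, 75 bases before the start): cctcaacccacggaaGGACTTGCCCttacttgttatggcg
Mdm2 (chr10:117710920-117710959, minus strand, 186 bases before the start): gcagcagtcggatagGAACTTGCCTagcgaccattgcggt
Ccng1 (chr11:40755447-40755486, minus strand, 185 bases before the start): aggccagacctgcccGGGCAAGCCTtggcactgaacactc
Gadd45a (chr6:67037423-67037462, minus strand, 40 bases before the start): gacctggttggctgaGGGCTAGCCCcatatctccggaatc
Ppm1d (chr11:85311107-85311146, plus strand, 132 bases before the start): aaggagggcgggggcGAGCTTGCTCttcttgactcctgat
Pml (chr9:58249906-58249945, minus strand, 144 bases before the start): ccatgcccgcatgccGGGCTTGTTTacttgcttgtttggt
Copies had to match the consensus at every base, so near copies stay in lower case. The 10 bases directly after the last Cdkn1a copy are a near copy that departs from the consensus only at its first base. A match describes the letters and is not a measured binding site. Copies before a start of Aen, Ei24, Polk, Rps27l and Sesn1 were also found, and their sequences are not shown. By their brightest probes, the 12 genes with a copy had log2 fold changes (knockout minus wild type) from -0.42 to 0.66 with a median of 0.04. The 14 genes that had windows and no copy ran from -0.86 to 1.29 with a median of 0.25.

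Of the 44 member probes, 1 passed the test for a higher level in the knockout and 0 passed for a lower level. The probe that passed belongs to Cdkn1a. Values are log2 signals minus the 75th percentile of the array, and the genotypes were compared with limma over the 26647 probes detected above background by 3 or more of the 6 arrays, with Benjamini-Hochberg adjustment and a threshold of 0.05. Over all tested probes 0.124% passed as higher and 0.342% as lower (0.465% in all). All 44 member probes entered the test, and 43 of them were well above background on every array. At an unadjusted p below 0.05, 9 member probes were higher and 1 was lower (10 in all), where 10.6% and 11.3% of all tested probes were (21.9% in all). The 3 knockout arrays lay wholly above the 3 wild type arrays at 10 member probes and wholly below at 1, against 13.7% and 15.4% of the probes measured on all 6 arrays. That makes 11 member probes without overlap, and 29.1% of all probes. The log2 fold change was positive at 34 of 44 member probes, against 48.6% of all tested probes, and its median was 0.24 against -0.01. Counted by gene with its brightest probe, 23 of 32 were positive and the median was 0.23.

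**Figure D1:**
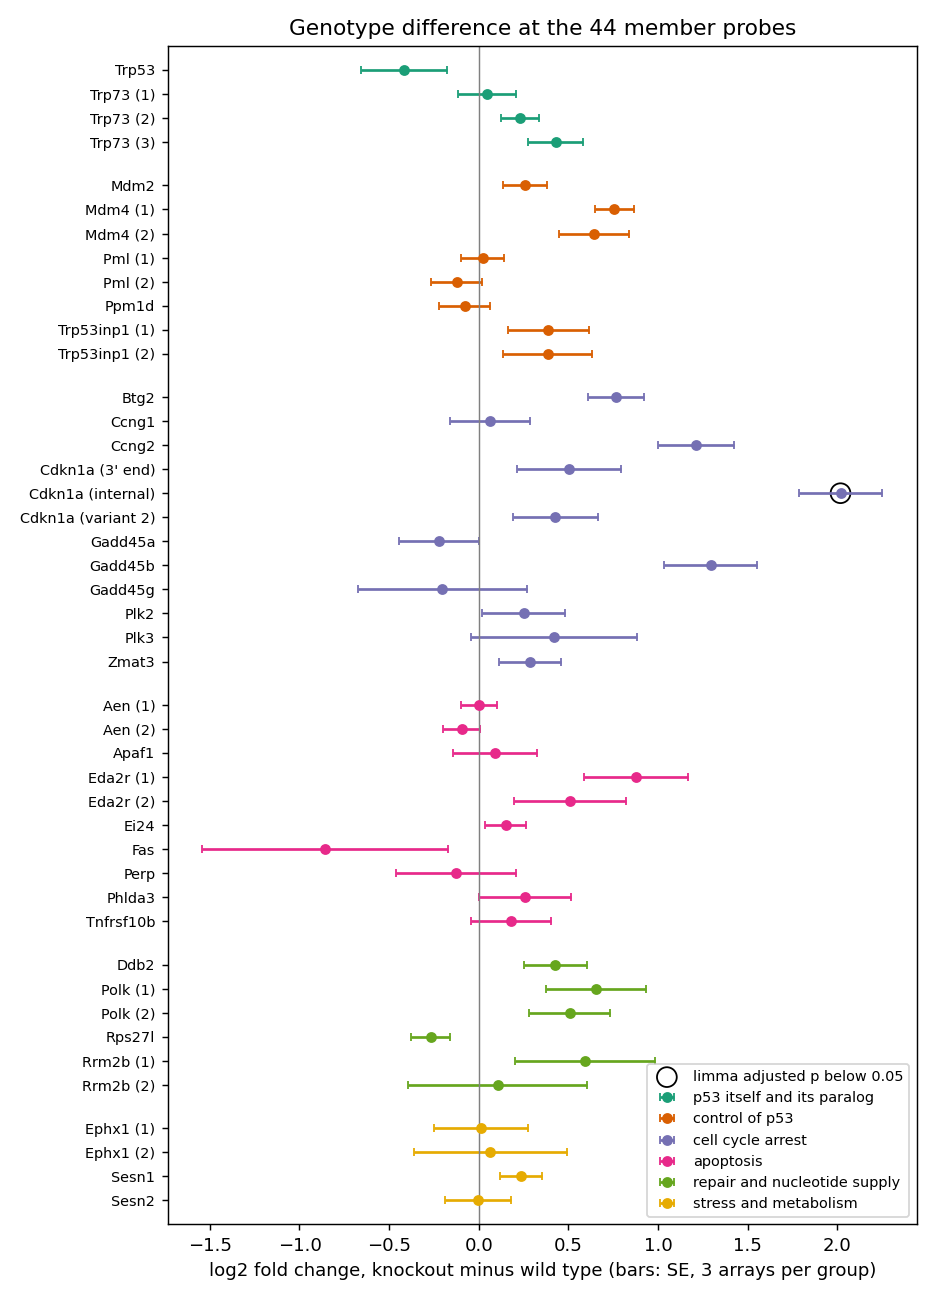
Log2 fold change (knockout minus wild type, horizontal axis) at each of the 44 member probes, grouped and coloured by role, with bars for the standard error from limma (3 arrays per group). The internal probe of Cdkn1a, ringed at 2.02, is the 1 probe with an adjusted p below 0.05, and 34 of the 44 points lie to the right of 0.

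**Figure D2:**
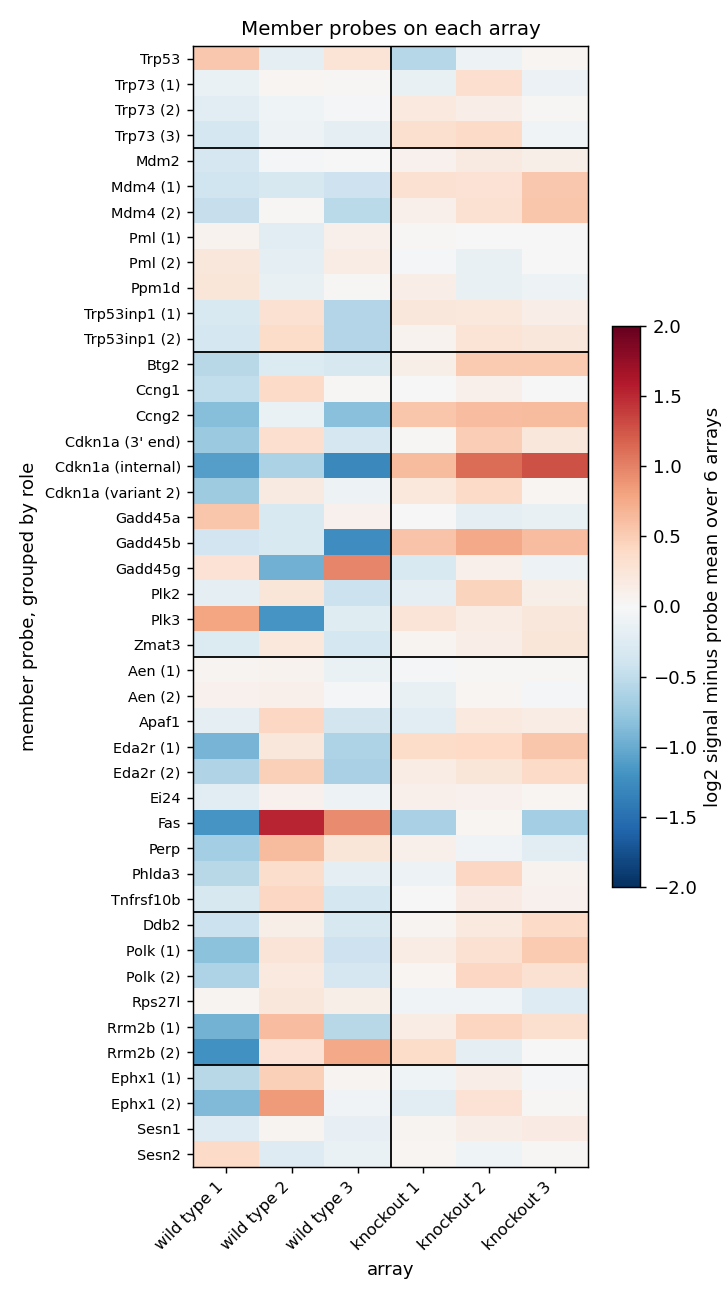
Each row is a member probe and each column an array, and the colour gives log2 signal minus that probe's mean over the 6 arrays. Wild type replicates 1 and 3 are mostly blue, wild type replicate 2 is often as red as the knockout arrays, and Fas has its reddest cell in wild type replicate 2.

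Cdkn1a was measured by 3 probes at different places along the gene, and they did not give the same size of difference. All 3 lie on mouse chromosome 17 of build mm9, and the files list them as follows. The most upstream probe (29227986 to 29228045) is listed for transcript variant 2, and it is called the variant 2 probe here. The next (29235299 to 29235358) lies 7313 bases further, is listed for an Ensembl transcript with no RefSeq accession, and is called internal. The last (29237377 to 29237436) lies another 2078 bases further, is listed for a RefSeq transcript and is called the 3′ end probe. The internal probe ends in the 26 bases below, with an ATG in capitals that begins at base 55 of the 60-base probe:
Cdkn1a internal probe, last bases: gtgtttcagccacaggcaccATGtcc

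At the internal probe the processed signal was 20.9, 29.0 and 20.2 in wild type replicates 1 to 3 and 84.5, 102.8 and 115.0 in knockout replicates 1 to 3. Every knockout array therefore read above every wild type array, and all 6 were well above background, whose limit on these arrays (the lowest signal called well above it) was between 8.69 and 13.7. On the log2 scale the values averaged -5.25 ± 0.33 for wild type and -3.23 ± 0.33 for the knockout (SD, n = 3). Cdkn1a rose at this probe by 2.02 ± 0.23 (SE), or 4.05-fold, with a limma adjusted p of 0.0377. The probe has a single spot per array. It was called in 6 of 15 alternatives, its log2 fold change ran from 0.94 to 2.20 and its adjusted p from 0.0234 to 0.200, and its direction was the same in each.

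The 3′ end probe, which has 10 spots per array with an SD between spots of 0.030 to 0.041 on the log2 scale, read 1.40, 2.48 and 1.80 on the wild type arrays and 2.17, 2.64 and 2.38 on the knockout arrays. Wild type replicate 2 lay among the knockout values. The log2 fold change was 0.50 ± 0.29 (SE) with an adjusted p of 0.338. The variant 2 probe read -3.14, -2.26 and -2.54 on the wild type arrays and -2.22, -2.05 and -2.39 on the knockout arrays, with a log2 fold change of 0.43 ± 0.24 and an adjusted p of 0.331. There too wild type replicate 2 overlapped the knockout. The log2 ratio of the internal probe to the 3′ end probe within an array averaged -7.15 ± 0.35 for wild type and -5.63 ± 0.25 for the knockout (SD, n = 3), higher by 1.51. Its ratio to the variant 2 probe was higher by 1.59. Neither ratio overlapped between genotypes, with an exact two-sided permutation p of 0.1 each, which is the smallest that 3 against 3 arrays can give. Under normexp background correction the differences were 0.44 and 0.62, and the ratio to the 3′ end probe overlapped between genotypes. A ratio within an array shows unequal change and not which probe changed.

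**Figure D3:**
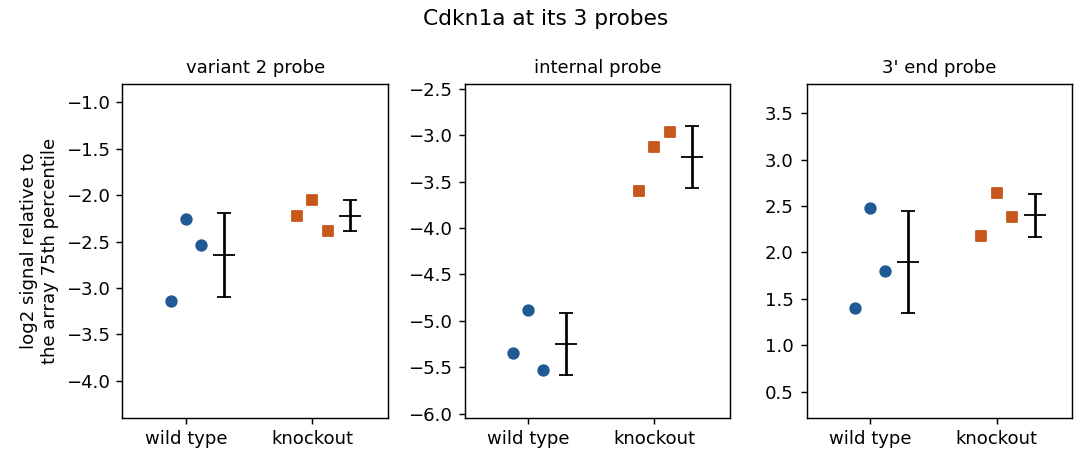
Log2 signal minus the array's 75th percentile at the 3 Cdkn1a probes, with 1 point per array and the group mean ± SD (n = 3) beside the points. Each panel spans the same range of log2 units. The groups are separate at the internal probe (-5.25 against -3.23) and overlap at the other probes.

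p53 itself showed no difference beyond the spread between arrays. The Trp53 probe (mm9 chromosome 11, 69404204 to 69404263) read 0.48, -0.24 and 0.22 on the wild type arrays and -0.63, -0.15 and -0.02 on the knockout arrays. Wild type replicate 2 lay below 2 of the 3 knockout arrays, so the groups overlapped. The difference between genotypes was -0.42 ± 0.24 on the log2 scale (SE, 3 arrays per genotype), with a limma adjusted p of 0.339. Trp73, a p53 paralog that binds similar sites, had 3 probes with log2 fold changes of 0.43, 0.23 and 0.05. The first read -4.77, -4.52 and -4.62 on the wild type arrays and -4.09, -4.03 and -4.49 on the knockout arrays, with an adjusted p of 0.196. At 2 of its 3 probes the knockout arrays all lay above the wild type arrays, and the third changed sign in 4 of 15 alternatives.

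Among the genes that control p53, both probes of Mdm4 separated the genotypes without passing the test over all probes. Mdm4 binds p53 and blocks its activity as a transcription factor. Its probe with the smallest p (mm9 chromosome 1, 134888407 to 134888466) read -2.76, -2.68 and -2.79 on the wild type arrays and -2.06, -2.07 and -1.83 on the knockout arrays. The wild type arrays agreed within 0.05 (SD), and every knockout array lay above them. The log2 fold change was 0.76 ± 0.11 (SE), with a limma adjusted p of 0.0574. The other Mdm4 probe had 0.65 ± 0.20 and an adjusted p of 0.158.

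Mdm2, the ubiquitin ligase that marks p53 for degradation and is itself a p53 target, read 4.02, 4.32 and 4.34 on the wild type arrays and 4.44, 4.54 and 4.48 on the knockout arrays (mm9 chromosome 10, 117126010 to 117126069). The groups did not overlap, with a log2 fold change of 0.26 ± 0.12 and an adjusted p of 0.268. Trp53inp1, a stress-induced nuclear protein that promotes phosphorylation of p53, had 0.39 and 0.38 at its 2 probes, and at each wild type replicate 2 was the highest wild type array. Its brighter probe read 2.60, 3.22 and 2.33 on the wild type arrays and 3.14, 3.13 and 3.05 on the knockout arrays. Ppm1d, a phosphatase that switches the damage response off, had -0.08, and Pml, the scaffold of nuclear bodies in which p53 is modified, had 0.02 and -0.12.

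Of the other members known for cell cycle arrest, Ccng2, Gadd45b and Btg2 had the largest log2 fold changes, and none passed over all probes. Ccng2, an unconventional cyclin that is raised in cells leaving the cycle, read -3.83, -3.10 and -3.81 on the wild type arrays and -2.42, -2.35 and -2.33 on the knockout arrays (mm9 chromosome 5, 93705131 to 93705190). All knockout arrays lay above all wild type arrays, and the knockout SD was 0.04 against 0.41 in wild type. The log2 fold change was 1.21 ± 0.21 (SE), with a limma adjusted p of 0.0712.

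Gadd45b, a small stress-induced protein that activates stress kinases, read 1.37, 1.46 and 0.52 on the wild type arrays and 2.34, 2.52 and 2.38 on the knockout arrays (mm9 chromosome 10, 80394367 to 80394426). Here wild type replicate 3 was the lowest array, and the groups were separate. Gadd45b had a log2 fold change of 1.29 ± 0.26, with an adjusted p of 0.0918. Btg2, an antiproliferative cofactor of mRNA deadenylation, read 0.24, 0.53 and 0.48 on the wild type arrays and 0.91, 1.32 and 1.32 on the knockout arrays (mm9 chromosome 1, 135972094 to 135972153), also without overlap, with 0.77 ± 0.16 and an adjusted p of 0.0951.

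The remaining arrest genes overlapped between genotypes. Plk3, a stress-responsive polo-like kinase, varied most within wild type, with 2.95, 0.97 and 1.92 against 2.41, 2.31 and 2.38 in the knockout. Gadd45g read 2.30, 1.04 and 2.98 on the wild type arrays and 1.71, 2.11 and 1.91 on the knockout arrays. Wild type replicate 2 was the lowest array for both genes. Log2 fold changes were 0.42 for Plk3, 0.29 for Zmat3, an RNA-binding zinc finger protein, 0.25 for Plk2, 0.06 for Ccng1, -0.20 for Gadd45g and -0.22 for Gadd45a, with adjusted p between 0.355 and 0.886.

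Paralogs within the list were set against each other within each array, in 6 comparisons. The log2 ratio of Ccng2 to Ccng1 was higher in the knockout by 1.15 ± 0.15 (SE), that of Gadd45b to Gadd45a by 1.52 ± 0.41 and that of Mdm4 to Mdm2 by 0.50 ± 0.13 at the Mdm4 probe with the smallest p. In these 3 the genotypes did not overlap, with an exact permutation p of 0.1 each, the smallest possible, and 0.2 after adjustment over the 6. Ccng2, Gadd45b and Mdm4 had each separated the genotypes on the same arrays, so these ratios are not independent support. With the brighter Mdm4 probe the ratio to Mdm2 was higher by 0.39 ± 0.21 and the genotypes overlapped (exact permutation p 0.2). The ratio of Gadd45b to Gadd45g differed by 1.50 ± 0.83 (exact permutation p 0.2, adjusted 0.3), that of Plk3 to Plk2 by 0.17 ± 0.74 (0.9 and 0.9) and that of Sesn2 to Sesn1 by -0.24 ± 0.29 (0.6 and 0.72).

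The apoptosis members had a median log2 fold change of 0.12 over 10 probes, and none passed the test. Eda2r, the ectodysplasin A2 receptor, had the smallest p. Its probe on mm9 chromosome X, 94531320 to 94531379, read -5.09, -3.94 and -4.77 on the wild type arrays and -3.80, -3.77 and -3.60 on the knockout arrays. The knockout arrays lay above wild type replicate 2 by a small margin and above the others by more. The log2 fold change was 0.88 ± 0.29 (SE, limma adjusted p 0.176), and at the other Eda2r probe it was 0.51 ± 0.31 with overlap.

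Fas, a death receptor, had the lowest log2 fold change of all member probes and the widest spread. It read -3.89, -1.19 and -1.77 on the wild type arrays and -3.36, -2.68 and -3.38 on the knockout arrays, with -0.86 ± 0.69 and an adjusted p of 0.475. Its wild type arrays enclosed every knockout array. Perp, a membrane protein of desmosomes that p53 induces in apoptosis, read 1.68, 3.00 and 2.61 on the wild type arrays and 2.47, 2.29 and 2.14 on the knockout arrays, again with replicate 1 lowest and replicate 2 highest in wild type. The other log2 fold changes were 0.26 for Phlda3, an inhibitor of Akt, 0.18 for Tnfrsf10b, a receptor for the death ligand TRAIL, 0.15 for Ei24, 0.09 for Apaf1, the core of the apoptosome, and 0.00 and -0.09 for the nuclease Aen.

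Members for repair and nucleotide supply had a median of 0.47 over 6 probes. Rps27l, a ribosomal protein gene induced by p53, was the 1 member whose knockout arrays all lay below wild type. It read 6.67, 6.85 and 6.73 on the wild type arrays and 6.55, 6.54 and 6.35 on the knockout arrays, with a log2 fold change of -0.27 ± 0.11 (SE) and a limma adjusted p of 0.223. Polk, a polymerase that copies damaged DNA, had 0.66 and 0.51 at its 2 probes. The first read -2.19, -1.11 and -1.78 on the wild type arrays and -1.22, -1.06 and -0.84 on the knockout arrays. Ddb2, which recognises ultraviolet damage, had 0.43 ± 0.18 (adjusted p 0.228), with -0.78, -0.24 and -0.67 on the wild type arrays and -0.29, -0.15 and 0.03 on the knockout arrays. At both genes wild type replicate 2 alone overlapped the knockout. Rrm2b, a subunit of ribonucleotide reductase, had 0.59 ± 0.39 at its brighter probe. Its other probe, at 0.11, passed the background test on 2 arrays of wild type and on 1 of the knockout.

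Stress and metabolism members showed the smallest shift, with a median of 0.04 over 4 probes. Sesn1, a stress-induced inhibitor of mTOR signalling, had 0.24 ± 0.12 (SE) and Sesn2 -0.01 ± 0.18, with limma adjusted p of 0.288 and 0.989. Ephx1, a microsomal epoxide hydrolase, had 0.01 and 0.06 at its 2 probes. Its brighter probe read 1.83, 3.57 and 2.65 in wild type against 2.50, 3.00 and 2.74 in the knockout, so the wild type arrays spread more widely than the genotypes differed.

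A list of 60 other genes of the p53 pathway was examined beside the members. Of these, 58 had a tested probe, and of their 85 probes 1 passed the limma test as higher and 0 as lower, with a median log2 fold change of 0.01. Over all tested probes 0.124% passed as higher and 0.342% as lower. At an unadjusted p below 0.05 by limma, 12 of the 85 were higher (14.1%) and 11 lower (12.9%). The shares over all tested probes were close, at 10.6% and 11.3%. The probe that passed belongs to Cdk1, the mitotic kinase that p21 can inhibit, at 0.88 ± 0.10 (SE, adjusted p 0.0377). The other Cdk1 probes had log2 fold changes of 0.12 and -0.31 and did not pass. The probe that passed was dim, with a wild type mean of -2.46 on the log2 scale. Wild type means were 2.53 at the probe with 0.12 and -3.72 at the probe with -0.31. Cdk1 was listed among arrest targets and their substrates, a group with a median log2 fold change of -0.12 over 20 probes. At an unadjusted p below 0.05 by limma, 2 of these 20 were higher (10%) and 6 lower (30%), so Cdk1 does not stand for its group. Genes with several probes count more than once in these numbers.

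None of the other groups of that list had a called probe. Among apoptosis targets, Pmaip1, which encodes the killer protein Noxa, had 0.82 ± 0.23 and Lrdd, the adaptor PIDD, 0.35 ± 0.13. Among upstream regulators the checkpoint kinase Chek2 had 0.51 ± 0.16 and the ubiquitin ligase Rfwd2 -0.32 ± 0.11. Among p53 cofactors Ppp1r13l had 0.46 ± 0.16 and Ppp1r13b 0.28 ± 0.11. Among metabolic targets Ddit4, which low oxygen also induces and which restrains mTOR, had 0.96 ± 0.22. Among secreted and surface targets Bai1 had 0.13 ± 0.15 and Igfbp3 0.11 ± 0.24. Adjusted p for these 9 probes ran from 0.109 (Ddit4) to 0.797 (Igfbp3) by limma.

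The member genes differed between wild type arrays, and so did markers of the feeder fibroblasts. The median of the 44 centred member probes was -0.35, 0.11 and -0.17 in wild type replicates 1 to 3 and 0.06, 0.19 and 0.08 in the knockout. By this median wild type replicate 2 lay above 2 of the 3 knockout arrays. By the mean of the same probes it was at 0.09, against 0.06, 0.22 and 0.16 in knockout replicates 1 to 3. It was the highest wild type array at 33 member probes (75%, against 40.4% of all tested probes measured on all arrays), and replicate 1 was the lowest at 23 (52.3% against 27.5%). The SD among wild type arrays exceeded that among knockout arrays at 38 of 44 member probes (86.4%, against 72.8% of all probes), with medians of 0.41 and 0.13, where over all probes the medians were 0.22 and 0.13.

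The mean of 15 feeder markers, centred in the same way, was -0.53, 0.97 and 0.79 on the wild type arrays and -0.61, -0.14 and -0.47 on the knockout arrays. The log2 of their summed signal ranged from 7.59 to 8.37 in wild type and from 7.48 to 7.82 in the knockout. Of the 15 genes, 14 had a negative log2 fold change and 0 were called, and all were well above background on every array. Feeder markers and most members thus pointed in opposite directions between genotypes, while within wild type replicate 1 was lowest and replicate 2 highest in both. Wild type replicate 3 did not run in parallel, at 0.79 for feeder markers and -0.17 for the member median. The part of the feeder cells in the member values was not tested. In bulk RNA, fewer cells of a type and less RNA per cell cannot be told apart. The mean of 10 ES cell markers was 0.01, 0.05 and -0.23 on the wild type arrays and 0.03, 0.09 and 0.05 on the knockout arrays. Of the 10, 7 had a positive log2 fold change and 0 were called. The 3 negative ones were Pou5f1 (-0.47, all knockout arrays below wild type), Utf1 (-0.49) and Zfp42 (-0.05). The median over the 14 ES cell marker probes was 0.31, in the direction of the member median of 0.24. Genes with several probes count more than once in it. The part of the ES cell marker differences in the member values was not tested.

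**Figure D4:**
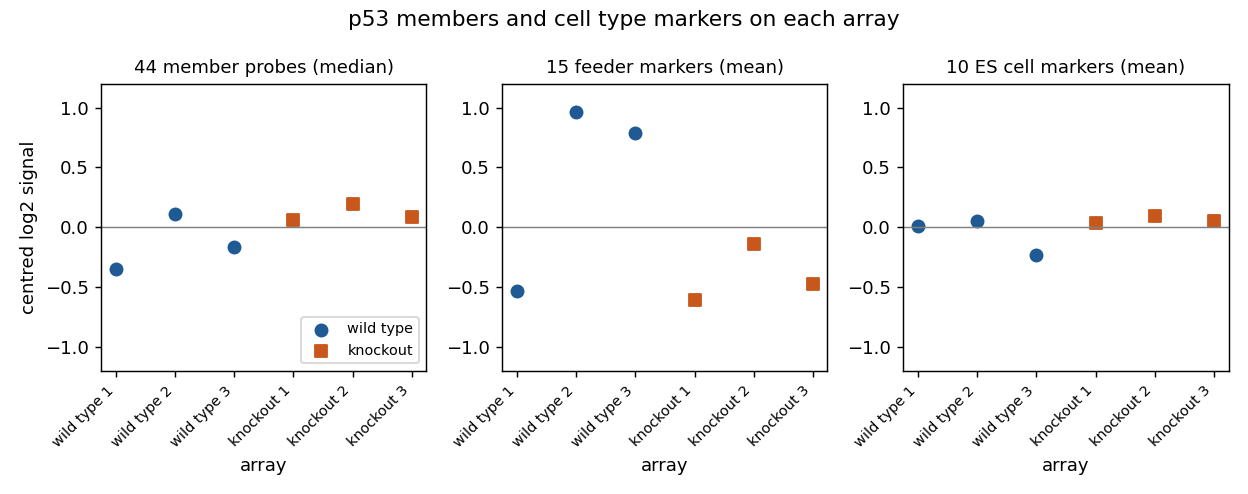
Centred log2 signal on each of the 6 arrays (horizontal axis) for the median of the 44 member probes, the mean of 15 feeder fibroblast markers and the mean of 10 ES cell markers, all on the same vertical scale. Wild type replicate 1 is low and replicate 2 high for members and feeder markers. Wild type replicate 3 is high for feeder markers (0.79) and low for members (-0.17). The knockout arrays are low for feeder markers (-0.61 to -0.14) and at 0.06 to 0.19 for members.

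The number of members called moved most with wild type replicate 2. Without it, limma called 12 member probes of 9 genes higher and 0 lower, while 5.29% of all tested probes were higher and 4.31% lower. The 9 genes were Cdkn1a at its internal probe, Gadd45b, Ccng2, Btg2, Mdm4, Eda2r, Polk, Rrm2b and Trp53inp1, with both probes of Mdm4, Eda2r and Trp53inp1. Log2 fold changes there ran from 0.64 at Trp53inp1 (adjusted p 0.0426) to 2.20 at Cdkn1a (0.0302), with 1.46 at Gadd45b, 1.45 at Ccng2 and 1.21 at Eda2r. The median over the 44 probes was 0.38. Wild type replicate 2 was the highest wild type array at 33 of the 44. Leaving it out therefore raises the log2 fold change at those probes by construction. With array weights, which gave that array the lowest weight (0.30), 6 member probes were higher, beside 3.03% of all tested probes. Without wild type replicate 3, or without any 1 of the 3 knockout arrays, 0 member probes were called, and without wild type replicate 1 the internal Cdkn1a probe alone was.

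**Figure D5:**
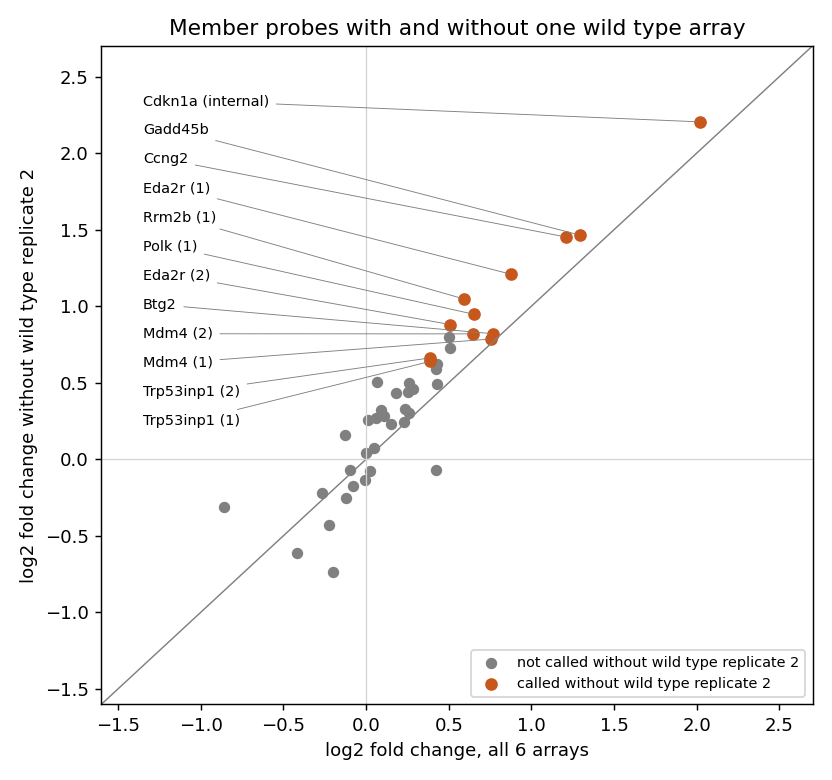
Log2 fold change of each member probe with all 6 arrays (horizontal axis) and without wild type replicate 2 (vertical axis), with the line of equality. The 12 labelled probes had an adjusted p below 0.05 without that array, and their points lie above the line.

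The probes outside the members whose pattern over the 6 arrays was most like that of the internal Cdkn1a probe were those of Tagap1, Nrm, Gm9725, S1pr1 and Pafah1b3, out of 26550 compared. Pearson correlations were 0.999, 0.997, 0.996, 0.995 and 0.995 over 6 arrays that share slides by genotype. Their log2 fold changes lay between 0.26 (Tagap1) and 1.03 (Gm9725), and none was called, with limma adjusted p from 0.0584 to 0.191.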

How the data were processed

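The authors deposited spot intensity on a linear scale from 1-colour Agilent arrays. Background subtraction and detrending by Feature Extraction 10.7.3.1 and probe positions on mm9 are given per the file headers, whereas version 10.3.1.1 stands in the submitters' processing notes. The authors' deposited table of all arrays holds log2 values centred per probe (column medians 0.02, -0.01, -0.07, -0.02, 0.02 and 0.03; its scaling is unknown) and served as an alternative. It matched the centred scanner values with r of at least 0.999 across probes.

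Control and outlier spots were left out, the log2 processed signal was averaged over a probe's spots and the 75th percentile of the array was taken off. Probes well above background on at least 3 of 6 arrays (26647 of 39429) were compared with limma 3.58.1 in R 4.3.3 (lmFit, eBayes, two-sided), and the model was tested on simulated data. No gene spot was saturated. Promoters came from RefSeq. Other pathway genes and markers were matched through current RefSeq symbols.

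The members and lists were chosen with earlier results of these data known. Full values are given for Trp53, Mdm2 and the 8 members with the smallest p, and for further members chosen after their values were seen; other pathway genes are named where called, or as the 2 with the smallest p in each group, of which 1 is not reported here. The number of arrays limits the precision.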

Additional observations from a re-analysis of the deposited data

How the results depend on the processing

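Among the 15 alternatives, the member probes called higher numbered 0 with detection required on all 6 arrays, with no filter on dim probes, with background corrected by normexp, with a trended and robust variance prior and with the replicate number as a block, and 6 with array weights, against 1 in the comparison reported. Leaving out 1 array at a time gave 0 to 12. No member probe was called lower under any of them. The median log2 fold change of the member probes stayed positive in all 15, from 0.17 without wild type replicate 1 to 0.38 without wild type replicate 2, and was 0.18 under normexp, which adds an offset of 50 to every signal. Of the 44 probes, 29 kept their sign in every alternative. The other 15 changed sign in at least 1 and were called in none; their log2 fold changes were at most 0.42 in size. Over all genes tested, calls (Cdk1 included) ran from 0 in either direction, in the same 9 alternatives that left 0 members, to 1409 higher and 1148 lower without wild type replicate 2, against 33 and 91. With array weights they were 807 and 778, with a shift to the median of tested probes 54 and 177, and with quantile normalization 50 and 131. The labels give both genotypes replicate numbers 1 to 3. Deviations from the genotype means correlated at 0.16, 0.23 and -0.14 between same-numbered arrays. Between arrays of different number the correlations ran from -0.32 to 0.21. With so few arrays these values cannot decide whether the replicate number pairs them. The block left 0 member probes called. No fit with slide or scan as a term could be made, since each holds 1 genotype.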
